A study of Homo sapiens with 12 samples.

Results

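ES-2, an established cell line derived from an ovarian cancer, was depleted of IGF2BP2 or of IGF2BP3, and the direct comparison of the total RNA of these 2 depletions is described here. The 6 libraries compared were chosen by their sample titles, 3 with a pool of siRNAs aimed at IGF2BP2 (siI2) and 3 with a pool aimed at IGF2BP3 (siI3), out of 12 libraries in the series. The other libraries, 3 with control siRNAs (siC) and 3 with siRNAs against IGF2BP1 (siI1), add to the estimate of the spread and serve as a reference for levels, but do not enter the fold changes. All 12 libraries come from 1 cell line grown in DMEM with serum, so the groups differ, per the labels, only in the siRNA pool. The sources used here give neither the time after transfection nor the siRNA dose, and 1 label on treatment speaks only of parental cells being seeded. Total RNA was isolated with TRIzol, ribosomal RNA was removed with Ribo-Zero, and random hexamers primed the reverse transcription.

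The IGF2BPs, also called IMPs, are oncofetal RNA-binding proteins. They coat mRNAs in the cytoplasm through KH and RRM domains and are known to shield bound transcripts from degradation, to read the m6A mark and to guide mRNA transport and translation. IGF2BP1 and IGF2BP3 are largely silent in adult tissue and reappear in many carcinomas, ovarian carcinomas included, while IGF2BP2 persists in adult tissue. Because the paralogs share much of their sequence and binding preference, setting 1 knockdown directly against another asks where the RNA levels of the cells differ depending on which paralog is lost.

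Levels are in FPM, the unit of the deposited table, in which fragments are scaled per library but not to transcript length. Levels are therefore compared here between libraries and not between genes. The FPM of a library summed to 800026 to 1167519 in these 6, so the scaling was not to the read total alone. The 6 libraries held 3299360 to 8277786 reads and 3 reads corresponded to 0.381 to 0.727 FPM. A fold change is the difference of mean log2(FPM + 1), siI2 minus siI3, so a positive value means a higher level in siI2, and it understates the change of genes near 0. Genes with a limma adjusted p under 0.05 (Benjamini-Hochberg over 13782 genes) are referred to as called. Nothing in the labels shows that replicate libraries were grown as separate cultures, and p-values therefore measure the spread between these libraries. The siI2 replicate 2 and siI3 replicate 3 libraries deviated together: their deviations from their group means correlated at 0.364 across genes. This was the largest such value between the groups, and deviations within a group of 3 are not independent. By a chi-square per degree of freedom between replicate read counts, siI3 replicate 3 was the odd library of siI3 (61.6 and 72.4 against 7.46). In siI2 it was replicate 3 (24.7 and 29 against 17.6), not replicate 2. Below, the 2 libraries are termed the pair that stood apart for their joint deviation only. The spliceosomal U1 RNA took 7.96% and 11% of their reads. In the other 4 it took 1.06% to 6.97%, the highest being siI2 replicate 1, close to siI2 replicate 2. Counts of called list members are also given without this pair, a setting chosen after seeing the data. Cytokeratin mRNAs of a carcinoma line were present (KRT7 at 643 ± 156 FPM in siI2 and 488 ± 128 FPM in siI3, SD, n = 3), while the ovarian lineage factors PAX8 and WT1 averaged only 1.77 and 1.09 FPM over the 6 libraries.

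The targeted mRNAs separated the groups. IGF2BP2 (ENSG00000073792) stood at 9.37, 11.8 and 19.2 FPM in the siI2 libraries and 94, 117 and 97.5 FPM in the siI3 libraries. Every siI2 library lay below every siI3 library, with means of 13.4 ± 5.10 and 103 ± 12.5 FPM (SD, n = 3), a log2 fold change of -2.90 with an SE of 0.22 (limma adjusted p = 1.25e-06), and siC lay at 80 ± 4.72 FPM. IGF2BP3 (ENSG00000136231) stood at 11.1, 18.2 and 15.5 FPM in the siI2 libraries and 5.89, 2.54 and 5.14 FPM in the siI3 libraries, again with no overlap (log2 fold change 1.56, SE 0.28, limma adjusted p = 0.00678). Its level in siC was 23.5 ± 5.18 FPM, so IGF2BP3 in siI2 lay between control and its own knockdown, though siI2 against siC did not pass (limma adjusted p = 0.2). The authors' deposited log2 fold change of IGF2BP3 against control was similar in siI1 (-0.626) and siI2 (-0.653). Neither passed by the authors' adjusted p. Fitted on the 6 libraries alone, the IGF2BP3 difference kept its size but missed the threshold (limma adjusted p = 0.0557). IGF2BP1, the paralog neither pool was aimed at, measured 58.6, 53.8 and 54.3 FPM in siI2 against 39, 35.3 and 42.5 FPM in siI3, groups that did not overlap but did not pass either (log2 fold change 0.51, limma adjusted p = 0.183).

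**Figure D1:**
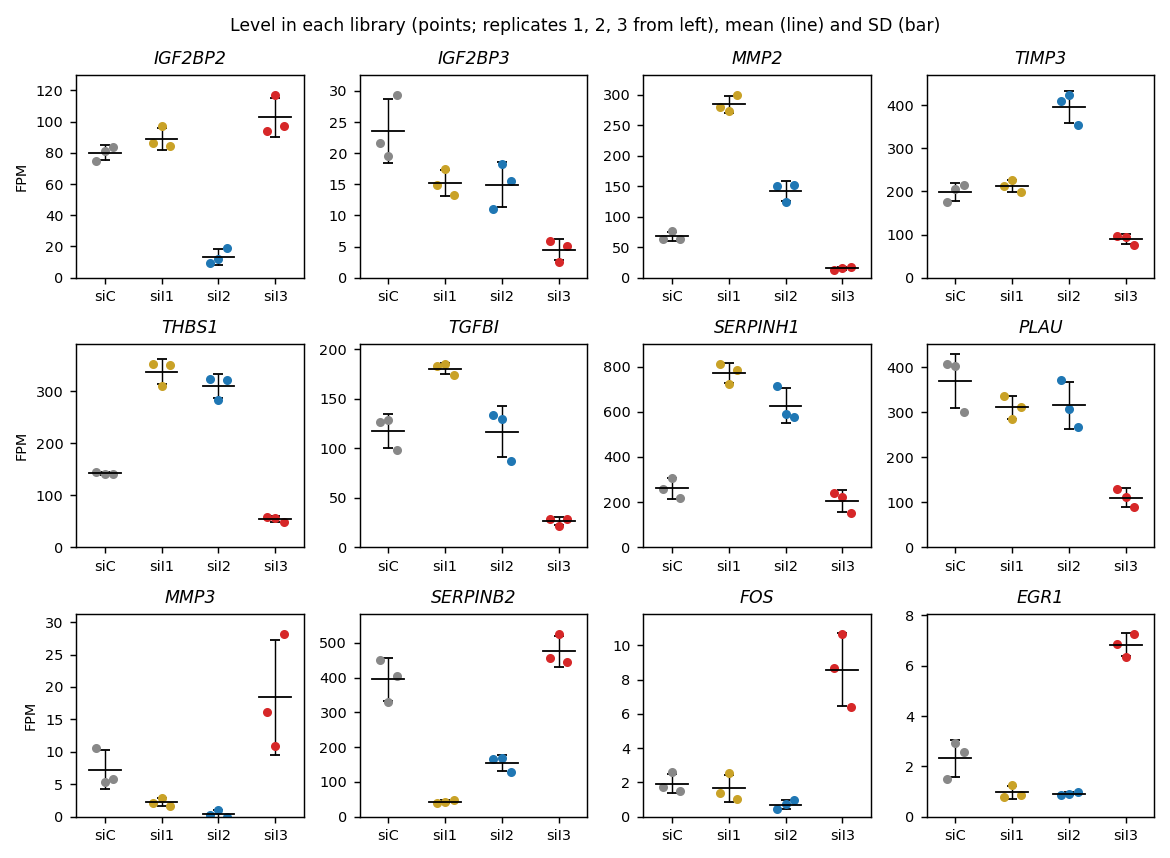
Level of 12 genes in each of the 12 libraries, in FPM on linear axes that start at 0, by siRNA group; points are libraries, lines are means of 3 and bars are SDs. IGF2BP2 is low only in siI2 and IGF2BP3 lowest in siI3; the MMP2, TIMP3, THBS1, TGFBI, SERPINH1 and PLAU points of siI2 all lie above those of siI3, and the MMP3, SERPINB2, FOS and EGR1 points all lie below.

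Of 13782 genes, 276 were called (2%), of which 174 were higher in siI2 (1.26% of genes tested) and 102 higher in siI3 (0.74%). The called genes differed by a median of 1.23 on the log2 scale, from 0.67 to 3.73, and 25 of them differed by at least 2, that is 4-fold. Over all genes the median log2 fold change was -0.03, and 1999 of the 13782 genes had an unadjusted p below 0.05. By type, 258 of the 276 were protein-coding. Genes whose 3 siI2 and 3 siI3 libraries did not overlap made up 16.5% of those tested. The count depended on which libraries entered: 91 genes were called from the 6 libraries alone, 257 without the pair that stood apart, 112 without siI2 replicate 1 or without siI3 replicate 1, 159 without siI2 replicate 2 and 123 without siI3 replicate 2, but 364 without siI2 replicate 3 and 410 without siI3 replicate 3. In all 6 of these single omissions 89 genes kept their call (69 higher in siI2, 20 higher in siI3), and 15 kept it in none. edgeR's quasi-likelihood test on the recovered reads called 275 genes, 236 of them shared, and placed 73.1% of its calls on the siI2 side against 63% here.

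**Figure D2:**
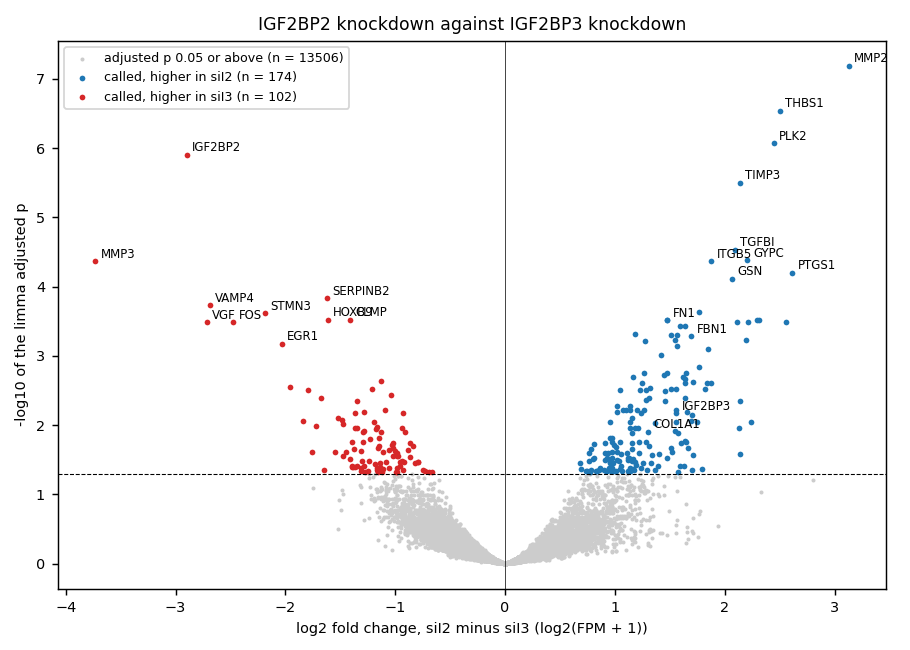
Log2 fold change of siI2 minus siI3 (x axis) against the -log10 of the limma adjusted p (y axis) for 13782 genes, with the dashed line at an adjusted p of 0.05. The 174 genes called higher in siI2, led by MMP2 and THBS1, reach smaller adjusted p-values than the 102 called higher in siI3, led by IGF2BP2 and MMP3.

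Secreted proteases of the extracellular matrix and their inhibitors held calls in both directions, a gelatinase being higher in siI2 and a stromelysin higher in siI3. MMP2 (ENSG00000087245) encodes gelatinase A, which cleaves basement membrane collagen. It measured 151, 124 and 152 FPM in the siI2 libraries and 13.1, 15.1 and 18.1 FPM in the siI3 libraries. All siI2 libraries lay far above all siI3 libraries, a 9.22-fold ratio of means (log2 fold change 3.13, SE 0.18, limma adjusted p = 6.44e-08). In bulk RNA such as this, fewer cells expressing a gene and less RNA per cell cannot be told apart. MMP3 (ENSG00000149968) encodes stromelysin 1, which degrades proteoglycans and activates other MMPs. It measured 0.213, 1.10 and 0 FPM in the siI2 libraries and 16.1, 10.9 and 28.2 FPM in the siI3 libraries, resting on 1, 6 and 0 reads in siI2 against 115, 86 and 159 in siI3 (log2 fold change -3.73, SE 0.38, limma adjusted p = 4.31e-05). With so few reads in siI2 the groups are far apart, but the fold itself is poorly determined. TIMP3, an inhibitor of metalloproteases that is held in the matrix, went the way of MMP2. Its level was 409.9, 424 and 355 FPM in the siI2 libraries and 97.2, 94.9 and 76.4 FPM in the siI3 libraries, a 4.43-fold ratio of means with no overlap (log2 fold change 2.14, SE 0.17, limma adjusted p = 3.2e-06). Of the 20 MMPs, TIMPs and related genes listed, 12 were measured and 9 of these were not called. Higher in siI2 were 2 and higher in siI3 was 1, against 1.26% and 0.74% of all genes. The median log2 fold change of the 12 was 0.07. Uncalled members included the collagenase MMP1 at -0.66, the membrane protease MMP14 at 0.10, TIMP1 at -0.60 and TIMP2 at 0.27. The 3 calls held in the fit on 6 libraries, in each single omission and without the pair that stood apart.

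Serine proteases of the plasminogen system and their inhibitors gave calls in both directions. Urokinase and tissue plasminogen activator both convert plasminogen to plasmin at the cell surface. Urokinase, PLAU, measured 372, 306 and 268 FPM in the siI2 libraries and 129.9, 112 and 88.6 FPM in the siI3 libraries, with no overlap (log2 fold change 1.51, SE 0.20, limma adjusted p = 0.000503). PLAT, the tissue activator, stood at 635 ± 113 FPM in siI2 and 319.8 ± 61.4 FPM in siI3 (SD, n = 3), a difference of 0.99 on the log2 scale (limma adjusted p = 0.0193). SERPINE2, an inhibitor of thrombin and plasminogen activators, was 2.51-fold higher in siI2 (limma adjusted p = 0.006). In the opposite direction, SERPINB2, the plasminogen activator inhibitor PAI-2, measured 167, 168 and 128 FPM in the siI2 libraries and 457, 525 and 443 FPM in the siI3 libraries (log2 fold change -1.62, SE 0.18, limma adjusted p = 0.000148). No siI2 library of SERPINB2 came near a siI3 library. Altogether 3 of 12 measured members (16 listed) were called higher in siI2 and 1 higher in siI3, with a median of -0.14. Over all genes 1.26% and 0.74% were called in these directions. Without the pair that stood apart the counts of called members were 2 and 1. The urokinase receptor PLAUR, at -0.76, did not pass. PLAT lost its call without siI2 replicate 1, siI2 replicate 2 or siI3 replicate 2 (limma adjusted p up to 0.1).

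Matrix glycoproteins, which link cells to collagen and carry growth factors, gave 6 calls higher in siI2 and 1 higher in siI3. Thrombospondin 1, THBS1 (ENSG00000137801), which restrains angiogenesis and activates latent TGF-beta, measured 324, 283 and 322 FPM in the siI2 libraries and 58.2, 56.1 and 47.7 FPM in the siI3 libraries. The siI2 mean was 5.74 times the siI3 mean, with a gap between the groups many times their spread (log2 fold change 2.50, SE 0.16, limma adjusted p = 2.9e-07). TGFBI, a TGF-beta-induced matrix protein that binds collagens and integrins, measured 134, 129.5 and 86.8 FPM in the siI2 libraries and 28.1, 21.9 and 28.9 FPM in the siI3 libraries. The groups did not overlap (log2 fold change 2.09, SE 0.20, limma adjusted p = 2.96e-05). Fibronectin, FN1, stood at 164 ± 9.70 FPM in siI2 and 59.2 ± 13.4 FPM in siI3 (SD, n = 3), a difference of 1.48 on the log2 scale (limma adjusted p = 0.000307). Fibrillin 1, FBN1, the main component of microfibrils, differed by 1.70 (limma adjusted p = 0.000521) and the fibulin EFEMP1 by 1.88 (limma adjusted p = 0.00249). The exception was tenascin C, TNC, an anti-adhesive matrix protein of wounds and tumour stroma. It measured 256, 224 and 235 FPM in siI2 against 538, 455 and 372 FPM in siI3, higher in siI3 without overlap (log2 fold change -0.91, SE 0.18, limma adjusted p = 0.0127). Of 27 glycoproteins listed, 17 were measured, 6 were called higher in siI2 and 1 in siI3 (1.26% and 0.74% of all genes). The median log2 fold change of the 17 was 0.74 against -0.03 over all genes. In 10 of the 17 all siI2 libraries lay above all siI3 libraries, against 7.69% of all genes. Without the pair of libraries that stood apart, 5 and 1 were called. The 6 calls include FBN2 at 0.74, which was called in only 1 of the 6 single omissions (limma adjusted p up to 0.2). TNC lost its call without siI2 replicate 2, siI3 replicate 1 or siI3 replicate 2 (up to 0.083).

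Collagens and the enzymes that fold, modify and crosslink them gave calls on the siI2 side. SERPINH1 encodes HSP47, the collagen chaperone of the endoplasmic reticulum, and measured 715, 589 and 577 FPM in the siI2 libraries and 241, 222 and 150.1 FPM in the siI3 libraries. Every siI2 library lay above every siI3 library (log2 fold change 1.63, SE 0.21, limma adjusted p = 0.000366). P3H2, a prolyl 3-hydroxylase that acts on basement membrane collagens, measured 26.6, 23.3 and 31 FPM in siI2 against 6.88, 8.77 and 8.33 FPM in siI3 and was 3.38-fold higher in siI2 (limma adjusted p = 0.00249). Further enzyme genes called higher in siI2 were PCOLCE2 (log2 fold change 1.15), which enhances procollagen cleavage, the lysyl oxidase relative LOXL3 (1.02) and P4HA2 (0.99), a subunit of prolyl 4-hydroxylase. Hence 5 of 23 measured enzyme genes (26 listed) were called higher in siI2 and none in siI3, against 1.26% and 0.74% of all genes. The median of the 23 was 0.49, against -0.03 over all genes, and 21 of the 23 had a positive value. After correction for GC content and length 8 were called higher in siI2 and 1 higher in siI3. Without the pair of libraries that stood apart it was 3 of 23, and SERPINH1 and P3H2 alone kept their calls in all single omissions. LOXL3 and PCOLCE2 lost theirs without replicate 1 or 2 of either knockdown (limma adjusted p up to 0.116 and 0.172), and P4HA2 without siI2 replicate 1, siI3 replicate 1 or siI3 replicate 2 (up to 0.184).

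Among the collagen chains themselves, 3 of 17 measured (26 listed) were called higher in siI2 and none higher in siI3 (1.26% and 0.74% of all genes). The list median was 0.15. COL1A1, the main chain of fibrillar type I collagen, measured 311, 237 and 527 FPM in the siI2 libraries and 147, 161 and 109 FPM in the siI3 libraries. The lowest siI2 library of COL1A1 lay above the highest siI3 library, but siI2 replicate 3 was far above its 2 replicates (log2 fold change 1.30, SE 0.26, limma adjusted p = 0.0125). COL4A2 and COL4A1, the paired chains of basement membrane collagen, stood at ratios of 2.19 and 2.01 (limma adjusted p = 0.0131 and 0.0299). These 2 genes share a start region on opposite strands, and since the sources used here name no strand setting for the counting, how reads at their overlap were assigned is not known. No collagen chain was called in the fit on 6 libraries alone (COL1A1 limma adjusted p = 0.0694), whereas all 3 were called without the pair that stood apart. COL4A2 was lost without siI2 replicate 1 (limma adjusted p = 0.082), and COL4A1 was called in 1 single omission only (up to 0.131).

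Adhesion receptors and growth factor receptors added fewer calls, to be read beside the 1.26% of all genes called higher in siI2. ITGB5, the integrin subunit that pairs with alpha V to bind vitronectin, measured 189, 148 and 157 FPM in the siI2 libraries and 52.2, 43.3 and 37.2 FPM in the siI3 libraries. It was the only one of 23 measured integrin and laminin genes (25 listed) to be called (log2 fold change 1.88, SE 0.19, limma adjusted p = 4.31e-05), and its partner ITGAV had a log2 fold change of 1.06 without passing. The median of the 23 was 0.29, and 2 were called higher in siI2 without the pair that stood apart. Receptor tyrosine kinases gave 3 calls of 15 measured (21 listed), all higher in siI2, at a median of 0.22, and again 3 without the pair. KIT, the stem cell factor receptor, measured 8.30, 9.0 and 3.88 FPM in siI2 against 0.702, 1.27 and 2.13 FPM in siI3, a log2 fold change of 1.74 (limma adjusted p = 0.00889). PDGFRB, the PDGF beta receptor, was at 6.59 ± 0.727 FPM in siI2 and 1.65 ± 1.03 FPM in siI3 (SD, n = 3; 1.58, limma adjusted p = 0.0131). The collagen receptor DDR1 differed by 1.37 (limma adjusted p = 0.0094). Each of these 3 lost its call in 1 or 2 single omissions: KIT without replicate 1 of either knockdown (limma adjusted p up to 0.0604), PDGFRB without siI3 replicate 1 or 2 (up to 0.0796) and DDR1 without siI2 replicate 1 (0.0695). Among axon guidance genes, 2 of 23 measured (31 listed) were called higher in siI2, the secreted ligand SLIT3 (1.26, limma adjusted p = 0.00177) and the semaphorin and VEGF co-receptor NRP1 (0.81, limma adjusted p = 0.0189), and none was called higher in siI3. Without the pair 1 guidance gene was called. NRP1 lost its call without siI2 replicate 1 or 2 or siI3 replicate 2 (up to 0.084).

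The IGF axis, from which the protein family takes its name, gave 2 calls of 12 measured genes (18 listed), both higher in siI2. Over all genes 1.26% were called higher in siI2. The list median was 0.33, with 1 call without the pair of libraries that stood apart. IGFBP7, a secreted protein that binds IGFs and the IGF1 receptor, measured 8.09, 6.43 and 5.58 FPM in the siI2 libraries and 0.561, 0.508 and 0.532 FPM in the siI3 libraries. Its siI3 libraries held 3 or 4 reads each and its siI2 libraries 23 to 38 (log2 fold change 2.31, SE 0.29, limma adjusted p = 0.000307). PAPPA, the protease that frees IGFs by cleaving IGFBP4, stood at 7.62 ± 3.93 FPM in siI2 and 1.79 ± 0.342 FPM in siI3 (SD, n = 3; limma adjusted p = 0.0243), a call lost without replicate 1 or 2 of either knockdown (up to 0.12). The receptors IGF1R and IGF2R, at 0.22 and 0.08, did not pass, and IGF2 itself did not reach the filter on low counts.

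Immediate early genes, which growth factors and stress switch on within minutes through SRF, CREB and ELK proteins, gave calls only on the siI3 side. FOS (ENSG00000170345), a subunit of the AP-1 transcription factor, measured 0.426, 0.735 and 0.970 FPM in the siI2 libraries and 8.70, 10.7 and 6.38 FPM in the siI3 libraries, from 2, 4 and 4 reads in siI2 and 62, 84 and 36 in siI3. The siI2 values lie at the level of a few reads and every siI3 library lies far above them (log2 fold change -2.47, SE 0.31, limma adjusted p = 0.000329). EGR1, a zinc finger transcription factor, measured 0.852, 0.919 and 0.970 FPM in the siI2 libraries and 6.88, 6.35 and 7.26 FPM in the siI3 libraries, with little spread in either group (log2 fold change -2.03, SE 0.28, limma adjusted p = 0.00067). FOSB, another AP-1 subunit, measured 1.28, 1.10 and 0.970 FPM in siI2 against 5.47, 7.75 and 4.43 FPM in siI3 (log2 fold change -1.68, SE 0.28, limma adjusted p = 0.00402). These groups did not overlap either, but FOSB overlaps ERCC1 on the opposite strand, which was itself at 59.7 FPM in siI2 and 103 FPM in siI3 without being called. ARC, a synaptic immediate early gene, was called at -1.37 (limma adjusted p = 0.0406) but kept its call in only 1 single omission (up to 0.167) and not in edgeR (0.102).

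Across the list of 20, 18 genes were measured, 4 were called higher in siI3 (background 0.74%), none was called higher in siI2 and the median was -0.63. All 18 had a negative value, also with RLE or upper-quartile scaling and after correction for GC content, and 17 of 18 without the pair of libraries that stood apart, where 3 were called. In 11 of the 18 the 3 siI2 libraries lay below all 3 siI3 libraries, against 8.84% of all genes. Members that did not pass included KLF4 at -1.06, ATF3 at -0.73, JUN at -0.49 and JUNB at -0.48. In siC, FOS stood at 1.74, 2.59 and 1.49 FPM and EGR1 at 1.51, 2.91 and 2.57 FPM, above all siI2 and below all siI3 libraries. FOSB in siC (1.16, 1.51 and 1.35 FPM) overlapped siI2, and ARC in siC (0.348, 0.539 and 0.271 FPM) lay below all siI2 libraries. None of these 4 genes was called in siI2 against siC (limma adjusted p = 0.132 to 0.788). All 4 were called above siC in siI3 (limma adjusted p = 0.002 to 0.0171).

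The promoters of 3 of these genes and of VGF, a called neuropeptide gene described further on, are shown because each holds a letter match to an element that the CREB or SRF families bind. They are the 250 bases before the RefSeq start of transcription in GRCh38.p14, 5′ to 3′ on the strand of the gene. Capitals mark matches to the CArG box (bound by SRF; 2 in EGR1), to the full cAMP response element TGACGTCA (1 in VGF) or to its core site TGACG, read on either strand.
EGR1, chr5:138465229-138465478, plus strand: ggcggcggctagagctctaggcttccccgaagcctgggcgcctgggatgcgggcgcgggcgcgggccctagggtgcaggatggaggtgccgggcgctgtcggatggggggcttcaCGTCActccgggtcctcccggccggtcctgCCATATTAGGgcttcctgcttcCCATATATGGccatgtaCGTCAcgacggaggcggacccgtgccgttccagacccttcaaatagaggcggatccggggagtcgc
FOS, chr14:75278578-75278827, plus strand: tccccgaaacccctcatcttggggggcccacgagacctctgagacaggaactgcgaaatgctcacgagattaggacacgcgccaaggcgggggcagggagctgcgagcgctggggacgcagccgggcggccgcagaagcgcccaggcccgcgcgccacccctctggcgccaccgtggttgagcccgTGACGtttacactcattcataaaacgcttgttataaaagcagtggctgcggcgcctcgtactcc
FOSB, chr19:45467746-45467995, plus strand: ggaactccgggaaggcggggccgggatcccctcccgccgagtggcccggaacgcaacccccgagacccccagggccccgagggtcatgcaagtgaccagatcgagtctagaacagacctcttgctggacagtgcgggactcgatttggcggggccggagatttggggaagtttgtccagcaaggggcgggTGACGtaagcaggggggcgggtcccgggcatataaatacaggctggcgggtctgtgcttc
VGF, chr7:101165570-101165819, minus strand: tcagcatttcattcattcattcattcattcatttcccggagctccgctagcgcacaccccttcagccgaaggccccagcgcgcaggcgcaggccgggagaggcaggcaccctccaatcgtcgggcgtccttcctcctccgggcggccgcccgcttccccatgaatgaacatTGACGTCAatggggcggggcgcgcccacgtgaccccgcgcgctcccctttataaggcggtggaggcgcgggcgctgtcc
The core site occurred in 31 of 72 promoters of genes called higher in siI3 that the table holds (43.1%), in 26 of 129 of genes called higher in siI2 (20.2%), in 30.3% of 9419 promoters of genes tested and in 21.7% of all 27305 promoters. Each full element also contains the core site. The full element was found in 2.78%, 2.33%, 2.98% and 1.77% of the same sets, and the CArG box in 2 of 72, 0 of 129, 0.998% and 1.14%. A match is a description of these letters and does not show binding.

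Feedback genes of the ERK pathway, which growth factor signalling induces and which then dampen it, gave calls in both directions. PHLDA1 measured 120.3, 119 and 162 FPM in siI2 against 260.3, 389 and 257 FPM in siI3 and SPRY4, a Sprouty inhibitor, 33.4, 28.7 and 33.2 FPM in siI2 against 62.9, 62.1 and 81.7 FPM in siI3. Neither group overlapped the other in these 2 genes, which were higher in siI3 (log2 fold changes -1.16 and -1.08, limma adjusted p = 0.0216 and 0.0339). The phosphatase DUSP4 was higher in siI2, at 39.3 ± 9.16 FPM against 17.8 ± 5.18 FPM (SD, n = 3; 1.12, limma adjusted p = 0.0318). Of 21 measured members (22 listed) 1 was called higher in siI2 and 2 higher in siI3, against 1.26% and 0.74% of all genes. The list median was -0.41, and 19 of the 21 had a negative value. In 7 of the 21 all siI3 libraries lay above all siI2 libraries, against 8.84% of all genes. In 1 the order was the opposite, against 7.69% of all genes. Without the pair that stood apart, none was called higher in siI2 and 2 were called higher in siI3. SPRY4 was called in none of the 6 single omissions (limma adjusted p up to 0.112), and PHLDA1 not without replicate 1 or 2 of either knockdown (up to 0.123). DUSP4 lost its call without replicate 1 or 3 of either knockdown (up to 0.0885). CCND1, the cyclin downstream of this pathway, measured 511, 434 and 610.3 FPM in siI2 against 962, 1066 and 535 FPM in siI3, ranges that overlapped through siI3 replicate 3 (limma adjusted p = 0.212). Without that library CCND1 was called higher in siI3, and without the pair it was not called.

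On the siI3 side, several of the 20 largest differences belonged to none of the gene lists. Only genes whose siI2 and siI3 libraries did not overlap could enter the 20. VGF, a neuropeptide precursor, measured 2.77, 2.21 and 3.64 FPM in the siI2 libraries and 29.6, 33.3 and 14.2 FPM in the siI3 libraries. The siI3 replicate 3 library was the lowest of its group (log2 fold change -2.72, SE 0.34, limma adjusted p = 0.000329). VAMP4, a SNARE of the trans-Golgi network, rested on 1 to 6 reads per siI2 library and 47 to 93 per siI3 library (log2 fold change -2.69, SE 0.31, limma adjusted p = 0.000186). STMN3, a microtubule-destabilizing stathmin, measured 51.5, 45.8 and 58.2 FPM in the siI2 libraries and 325, 289 and 143 FPM in the siI3 libraries (log2 fold change -2.18, SE 0.26, limma adjusted p = 0.000244). HOXB9, a homeobox transcription factor, was 3.23-fold higher in siI3 (limma adjusted p = 0.000302), and the adhesion molecule CLMP 2.71-fold (limma adjusted p = 0.000304). The acyltransferase LCLAT1 (-1.79) and RASSF8 (-1.48) also held their calls in every single omission. The remaining genes among the 20 largest on this side were AL596244.1, LINC02454, KRTAP2-4, BTG3, LYRM7, EOGT and ELK3, at -1.96 to -1.47. KRTAP2-4 has near-identical copies among which reads may be split, and BTG3 kept its call in only 1 single omission (limma adjusted p up to 0.158). ELK3 and KRTAP2-4 lost theirs without replicate 1 or 2 of either knockdown (up to 0.136 and 0.131), EOGT without replicate 1 of either (up to 0.0591), LINC02454 without siI2 replicate 1 (0.0594) and LYRM7 without siI3 replicate 2 (0.0554).

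On the siI2 side, several of the 20 largest differences fell outside the matrix groups. Libraries that did not overlap were again a condition for entering the 20. PLK2, a polo-like kinase and p53 target, measured 165, 205 and 171 FPM in the siI2 libraries and 33.5, 36.3 and 27.3 FPM in the siI3 libraries (log2 fold change 2.45, SE 0.18, limma adjusted p = 8.55e-07). GYPC, a membrane skeleton anchor, measured 52.8, 43.4 and 51.6 FPM in siI2 against 10.8, 10.2 and 8.68 FPM in siI3 (log2 fold change 2.21, limma adjusted p = 4.15e-05). Gelsolin, GSN, which severs and caps actin filaments, measured 20.4, 17.5 and 20.4 FPM in siI2 against 3.93, 4.32 and 3.37 FPM in siI3 (2.07, limma adjusted p = 7.73e-05). CA11, MYO1D, GGT5 and GLT8D2 had log2 fold changes of 2.21, 2.12, 2.30 and 2.20 and kept their calls in every single omission, as did the non-coding AC124067.2 (2.56) and AC051619.8 (2.14). CPM, which overlaps MDM2, lost its call without replicate 1 of either knockdown (limma adjusted p up to 0.0601), F2RL2 also without siI3 replicate 2 (up to 0.0661), and the replication factor PCLAF, which is in neither cell cycle list described further on, without replicate 1 or 2 of either (up to 0.102). PLK2 was 1 of 2 calls among 22 measured p53 targets (26 listed, median -0.06), beside 1.26% of all genes called higher in siI2. Without the pair that stood apart 1 was called. The other call was RPS27L (1.59), which lost it without replicate 1 or 2 of either knockdown (up to 0.2).

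**Figure D3:**
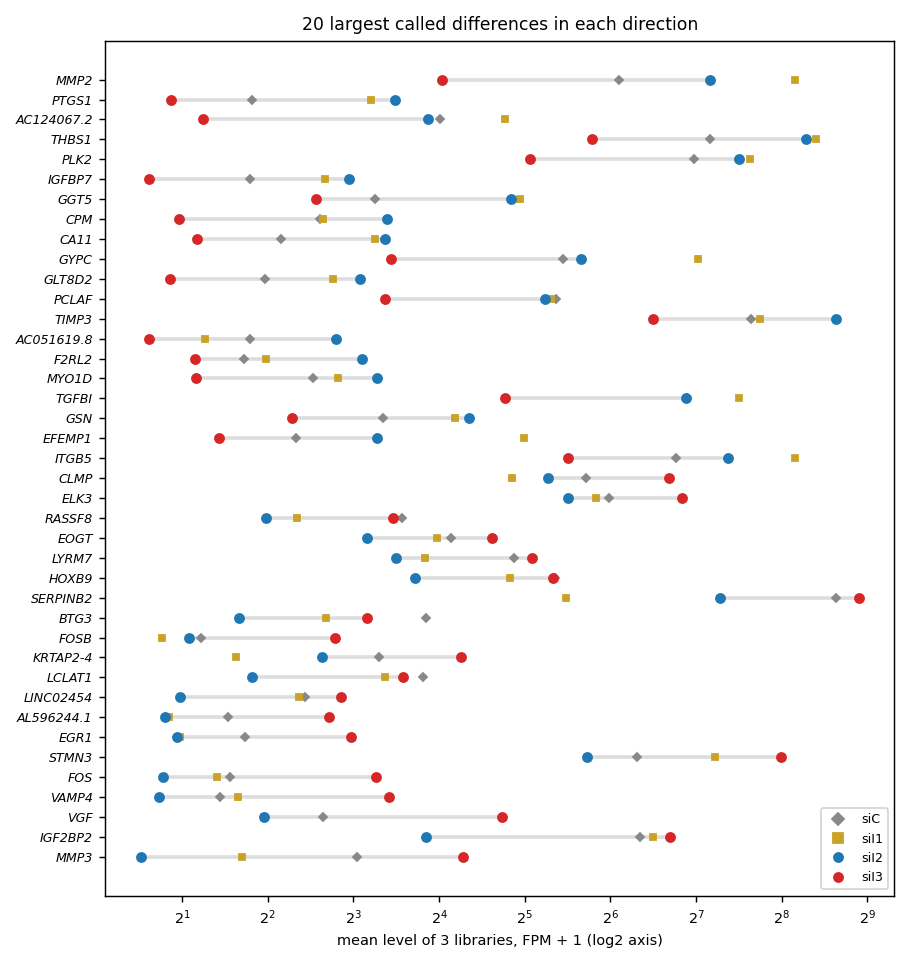
Mean level of 3 libraries (FPM + 1, log2 axis) in siI2 (blue), siI3 (red), siC (grey diamonds) and siI1 (yellow squares) for the 20 largest called differences in each direction, by gene. For MMP2, THBS1, TIMP3, PTGS1, GSN and CA11 the control lies between both knockdowns; for HOXB9 and RASSF8 it lies near siI3, and for TGFBI near siI2.

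TGF-beta signalling genes split, and targets of the mechanosensitive factors did too. Calls in these lists stand beside 1.26% of all genes called higher in siI2 and 0.74% higher in siI3. TGFB2, a ligand, measured 20.9, 23.3 and 26.7 FPM in siI2 against 8.28, 8.0 and 8.15 FPM in siI3 (log2 fold change 1.42, SE 0.20, limma adjusted p = 0.00098), while the receptor TGFBR2 measured 18.5, 14 and 13.3 FPM in siI2 against 45.7, 28.8 and 33.7 FPM in siI3 (-1.18, limma adjusted p = 0.0114). The ligand was thus higher in siI2 and the receptor higher in siI3, each without overlap, and they were the only calls among 30 measured genes (33 listed, median 0.04). TGFBR2 lost its call without 1 library (limma adjusted p = 0.0794, without siI3 replicate 1). Of 24 YAP and TEAD targets 1 was called higher in siI2 (TGFB2 again) and 2 higher in siI3, the coagulation initiator F3 (-1.44) and the tumour suppressor DLC1 (-0.93). Of 17 measured SRF and MRTF targets (21 listed) tropomyosin TPM1 was higher in siI2 (1.45, limma adjusted p = 0.00189) and FHL2 higher in siI3 (-0.92, limma adjusted p = 0.0338). F3 and FHL2 lost their calls without replicate 1 or 2 of either knockdown (up to 0.123 and 0.161), and DLC1 without siI3 replicate 1 (0.051). Without the pair, the calls higher in siI2 and in siI3 numbered 2 and 1 for TGF-beta genes, 1 and 1 for YAP and TEAD targets and 1 and 1 for SRF and MRTF targets. Angiogenic factors gave NOTCH2 higher in siI2 (1.04, limma adjusted p = 0.00316) and ESM1 and VEGFA higher in siI3 (-1.16 and -0.89, limma adjusted p = 0.042 and 0.0232) among 17 measured (25 listed), or 1 and 1 without the pair. ESM1 and VEGFA were lost without replicate 1 or 2 of either knockdown (up to 0.171 and 0.128). The tight junction gene CLDN4 (-1.72, limma adjusted p = 0.0102), with at most 6 reads in a siI2 library, was the only call among 11 measured genes of epithelial-mesenchymal transition (21 listed) and was lost without replicate 1 of either knockdown (up to 0.0646); without the pair 1 gene of this list was called, also higher in siI3.

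**Figure D4:**
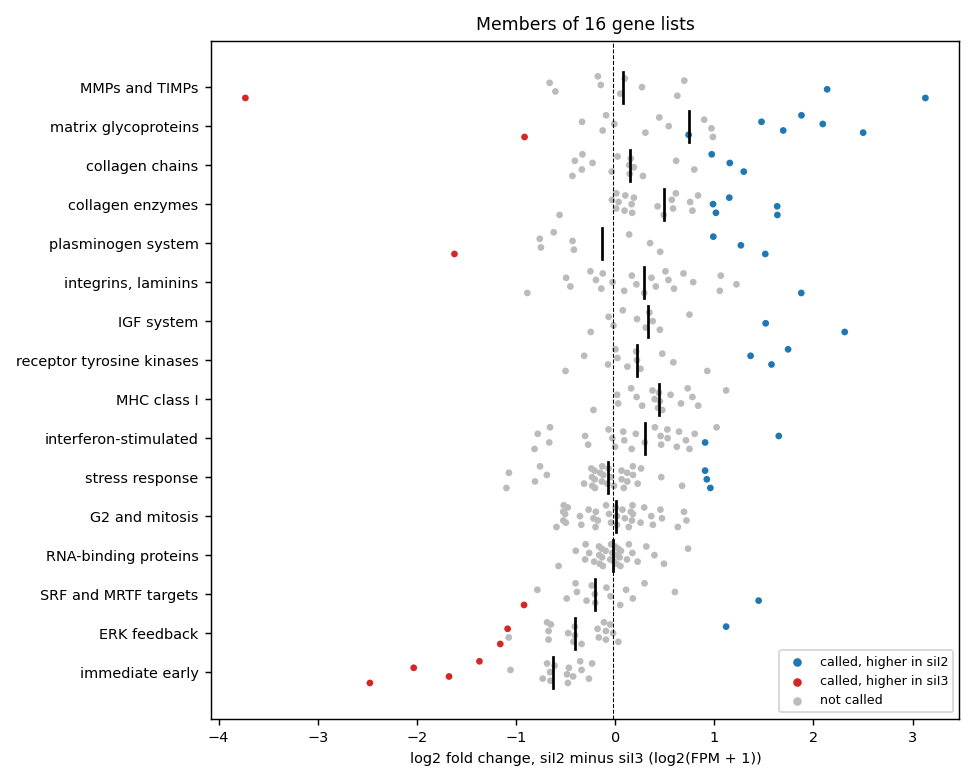
Log2 fold change, siI2 minus siI3, of each measured member of 16 gene lists; blue and red points were called, grey points were not, black bars are list medians and the dashed line is the median of all genes (-0.03). Matrix glycoproteins have a median of 0.74 with 6 blue points and 1 red, and all 18 immediate early genes lie below 0, 4 of them red.

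Interferon-stimulated genes gave 2 calls and antigen-presentation genes none, beside 1.26% of all genes called higher in siI2. Of 27 measured interferon-stimulated genes (43 listed) 2 were called higher in siI2, IFI6 (1.65, limma adjusted p = 0.0178) and the transcription factor STAT2 (0.91, limma adjusted p = 0.0183), with a median of 0.30, and 1 without the pair that stood apart. STAT2 measured 38.5, 38.4 and 34.9 FPM in siI2 against 19.6, 19.1 and 19.5 FPM in siI3, with very little spread within each group. IFI6 lost its call without siI2 replicate 1 or siI3 replicate 1 or 2 (up to 0.0891) and STAT2 without replicate 1 or 2 of either (up to 0.08). MHC class I and peptide-loading genes gave no call among 18 measured (20 listed), near the 2% called over all genes. Of these 18, 17 had a positive value and 6 an unadjusted p below 0.05, against 1999 of all 13782 genes. Their median was 0.44, and HLA-B had the largest value, 1.12. Of these 18 genes, edgeR called none, while DESeq2 and the fit corrected for GC content called 2 each.

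Endoplasmic reticulum stress genes gave 3 calls of 34, all higher in siI2: the sensor ATF6 (0.96), XBP1 (0.91), a transcription factor of the unfolded protein response, and HERPUD1 (0.92), a component of protein disposal at the endoplasmic reticulum (limma adjusted p = 0.0353, 0.0253 and 0.03). None of the 3 kept its call in every single omission (up to 0.184, 0.115 and 0.143). No list member was called without the pair of libraries that stood apart, and the list median was -0.07. Over all genes 1.26% were called higher in siI2. The cell cycle lists held no call. None of 36 genes of G2 and mitosis and none of 37 of replication was called, also without the pair. With 2% of all genes called, lists of this size without a call are near the background. The list medians were 0.01 and -0.02, with 3 unadjusted p-values below 0.05 in each list, against 1999 of all 13782 genes. edgeR called none of either list, and DESeq2 and the fit corrected for GC content called 1 replication gene each. AURKB, for example, measured 351, 278 and 269 FPM in siI2 against 273, 354 and 222 FPM in siI3, ranges that overlapped.

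Transcripts reported elsewhere as IGF2BP targets gave 1 call. Of 22 listed, 16 were measured, with a median of -0.01 and 4 unadjusted p-values below 0.05, against 1999 of all 13782 genes. Of the 16, 1 was called, against 2% of all genes. That gene, BTRC, the ubiquitin ligase subunit that recognizes beta-catenin, measured 18.9, 20 and 16 FPM in siI2 against 9.68, 9.53 and 10.1 FPM in siI3 (0.84, limma adjusted p = 0.0461) and kept its call in only 1 single omission (up to 0.169); no target was called without the pair. MYC measured 349, 329 and 339.7 FPM in the siI2 libraries and 403, 439 and 268 FPM in the siI3 libraries. The siI2 values fell inside the range of siI3 (log2 fold change -0.09, SE 0.21, limma adjusted p = 0.886). HMGA2 measured 24.5, 20.8 and 54.1 FPM in siI2 against 23, 22.2 and 14.2 FPM in siI3, overlapping groups (limma adjusted p = 0.387), and HMGA1 was 1766 ± 374 and 2857 ± 450.0 FPM (SD, n = 3; limma adjusted p = 0.245). LIN28B had 2 to 4 reads in each of the 6 libraries, too few to test. No m6A factor (14 measured), no factor of miRNA function and mRNA decay (32) and no other RNA-binding protein listed as a partner (32) was called. With 2% of all genes called, lists of this size without a call are near the background. The list medians were 0.09, 0.00 and -0.02, with 2, 5 and 2 unadjusted p-values below 0.05. In these 3 lists edgeR called none, and DESeq2 called 1 decay gene in each direction. The fit corrected for GC content called 1 decay gene higher in siI2 and 2 higher in siI3. RLE and upper-quartile scaling called 1 decay gene each, higher in siI3.

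The comparison says which knockdown is higher, not which one moved, so each called gene was set beside the control libraries. Both differences from siC share the same 3 control libraries and are given side by side only. Against siC, limma called 1.51% of all genes in siI2 and 10.6% in siI3. The siC libraries also stood apart from both knockdowns in 1 abundant RNA: the signal recognition particle RNA 7SL with its copies took 11.3% to 15.6% of reads in siC, 23.4% to 28.3% in siI2 and 20.2% to 28.5% in siI3. The slope on transcript GC content of each library's log2 deviation from the mean of all 12, per 10 percentage points, was -0.46 to 0.02 in siC, -0.09 to 0.20 in siI2 and -0.02 to 0.17 in siI3. The part of these measures in the differences from siC was not tested. Of the 174 genes higher in siI2, 90 were called against siC in siI3 only, 25 in siI2 only, 8 in both and 51 in neither. Among the 174, siI3 was called below siC for 98 and siI2 called above siC for 31. Of the 102 genes higher in siI3, 35 were called against siC in siI3 only, all above siC, 23 in siI2 only, all below siC, and 44 in neither. TGFBI illustrates the first kind, with log2 fold changes against siC of -0.03 in siI2 and -2.12 in siI3 (limma adjusted p = 0.95 and 4.91e-05). P3H2 illustrates the second, at 1.97 and 0.34 (limma adjusted p = 0.00248 and 0.393). HOXB9 was called against siC in siI2 only, at -1.64 and -0.02 (0.00214 and 0.948), and FOS was called in siI3 only, at -0.78 and 1.70 (0.163 and 0.00772). MMP3 was below siC in siI2, at -2.54, and not called in siI3, at 1.19 (0.00428 and 0.0534).

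The third knockdown, of IGF2BP1, lay nearer to siI2 in most of the genes called higher in siI2. For the 174 genes higher in siI2, the siI1 mean lay nearer to siI2 in 147 (84.5%) and nearer to siI3 in 27. For the 102 genes higher in siI3, it lay nearer to siI2 in 64 (62.7%). Over all 13782 genes the share nearer to siI2 was 57.5%, close to that of the 102 genes. These shares are descriptions without a test. MMP2 in siI1 stood at 285 ± 13.7 FPM and THBS1 at 337 ± 24.3 FPM (SD, n = 3), whereas SERPINB2 was at 43.6 ± 3.32 FPM, below both other knockdowns.

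Markers of other cell types were compared between the groups. Leukocyte markers (13 listed) summed to 2.34 to 4.12 FPM in siI2 and 1.52 to 7.97 FPM in siI3, with MS4A1 and CD68 at 0 in all 6 libraries. Erythroid markers (7 listed) summed to 0.43 to 0.73 FPM in siI2 and 0.84 to 3.19 FPM in siI3, ranges that did not overlap but lay at the level of a few reads. Endothelial markers summed to 286 to 387 FPM in siI2 and 244 to 404 FPM in siI3, nearly all of it TIE1 and CDH5, while VWF averaged 1.49 FPM and KDR 0.706 FPM. The ranges overlapped between the groups for the leukocyte and endothelial lists, and neither TIE1 (-0.06) nor CDH5 (0.17) was called. Ovarian carcinoma markers (14 listed) summed to 819 to 1163 FPM in siI2 and 508 to 789 FPM in siI3, without overlap, nearly all of it KRT7, KRT18 and KRT8. None of the 5 measured carcinoma markers was called (2% of all genes were), at a median of 0.48 and with 2 unadjusted p-values below 0.05. None of 6 measured keratins (10 listed) was called either, at a median of 0.48 and with 3 such p-values, and all 6 had a positive value. edgeR called none of either list, while DESeq2 and the fit corrected for GC content called KRT18, which is in both. The part of these markers in the results was not tested. Over 13570 genes, not independent of each other, the Spearman correlation between transcript GC content and the difference of siI2 from siI3 was -0.05, and 270 of the 276 calls were also called after correction for GC content and length.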

How the data were processed

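Total RNA of 12 libraries of ES-2 cells was analysed, grouped by sample title. The authors deposited 1 table in FPM, a signal scaled per library. Per the submitters' processing notes, adapters were trimmed with cutadapt 1.6, reads mapped with TopHat2 2.0.13 to hg19 and counted with featureCounts 1.4.6, with edgeR 3.12; the sources used here name no strand setting or annotation. The authors' deposited log2 fold changes and FDR columns (adjusted p-values of each knockdown against control) were not used in the tests.

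FPM values were whole multiples of 1 read (100% within a tolerance of 0.01). The recovered reads gave depth and the low-level filter (filterByExpr, minimum count 10). The 92 spike-in features were left out, and all 37 mitochondrial genes are listed at 0. Groups were compared by limma-trend (limma 3.58.1) on log2(FPM + 1) with all 12 libraries, 1 coefficient per group, 8 residual degrees of freedom before moderation, and Benjamini-Hochberg adjustment. Alternatives were edgeR 4.0.16 and DESeq2 1.42.0 (R 4.3.3) on recovered reads, other pseudocounts, scalings and filters, a replicate block, fewer libraries, and a loess correction for transcript GC content and length. Precision at low level is limited by depth, since 3 reads are 0.381 to 0.727 FPM in the libraries compared.

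Named genes were the IGF2BPs, MYC, HMGA2 and LIN28B; the 20 largest called differences per direction among coding and long non-coding genes that reached 5 FPM on average in 1 of the knockdowns and whose libraries did not overlap; up to 6 called members per list and direction; and, for lists without a call, up to 2 members with the highest level. Other list members are given with their fold change only and were chosen after their values were seen. The comparison and the 45 gene lists were chosen with earlier results of these data known. Symbols and gene overlaps come from GENCODE on GRCh38 and promoters from RefSeq, and no coordinates of the authors' build are given.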

Additional observations from a re-analysis of the deposited data

Results flagged for a closer look

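For 6 of the named genes, 1 knockdown was called above siC and the other called below it (limma, n = 3 per group). The opposite directions rest on these 2 comparisons with siC. The direct comparison of siI2 with siI3 tests only whether the levels differ, and the 6 genes were taken from those called in it. MMP2 differed by 3.129 on the log2 scale between the knockdowns, at 1.05 in siI2 and -2.07 in siI3 against siC (limma adjusted p = 0.00724 and 3.31e-05). THBS1 differed by 2.501, at 1.11 and -1.39 (0.00398 and 0.000275), and TIMP3 by 2.138, at 0.99 and -1.14 (0.0102 and 0.00218). The cyclooxygenase PTGS1 differed by 2.613, at 1.70 and -0.91 (0.00701 and 0.0451), on 5 or 6 reads in each siI3 library. Gelsolin, GSN, differed by 2.069, with means of 19.4 FPM in siI2, 9.19 FPM in siC and 3.87 FPM in siI3 (0.0369 and 0.0132), and CA11 by 2.21, at 1.24 and -0.97 (0.0411 and 0.0391). Both differences from control share the same siC libraries. In the authors' deposited table, the FDR for siI3 against control was 1.40e-12 for MMP2, 4.90e-07 for THBS1 and 0.000173 for TIMP3, but 0.0201 for GSN, 0.0818 for CA11 and 0.0856 for PTGS1. For siI2 against control it was 0.00597, 0.000278, 0.00344, 0.0519, 0.0207 and 5.55e-05 in the same order.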

How the results depend on the processing

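The 276 calls became 91 with the 6 libraries alone, 557 with DESeq2, 134 without a filter, 518 after the correction for GC content and length, and 112 to 410 on leaving out each library in turn. Of the called named genes (90), none changed direction under any alternative run. They were chosen by their calls in these same libraries, so this could hardly come out otherwise. With the 6 libraries alone 42 lost their call, 28 without a filter and 21 without siI2 replicate 2 and siI3 replicate 3 together. With edgeR 8 lost it, and none did with DESeq2 or with RLE or upper-quartile scaling. Of the uncalled named genes, CCND1 and CNOT1 were called without siI3 replicate 3, CALR and KRT18 with DESeq2 and KRT18 with the GC correction. With the 6 libraries alone IGF2BP3 kept its fold change of 1.558 (limma adjusted p = 0.0557). Collagen enzyme genes called higher in siI2 (5) numbered 2 with the 6 libraries alone and with no filter, 8 with the GC correction, 3 without the pair, and 2 to 5 on leaving out a library. The replicate block called 192 genes. Same-numbered libraries showed no common pairing: their deviations correlated at 0.161, -0.3 and -0.202. With so few libraries these values cannot show whether the samples were paired.

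Uncalled genes near 0 changed sign. With edgeR EDC4 was 0.008 and VARS 0.003; with RLE scaling EDC4 was 0.007; with the GC correction EDC4 was 0.021, TIE1 0.013 and VARS 0.049; and without the pair AURKB was -0.016, HBEGF 0.012 and TNFAIP2 -0.129. On leaving out each library, ALDH1A3 ran from -0.024 to 0.232, ALKBH5 from -0.021 to 0.231, AURKB from -0.064 to 0.273, EDC4 from -0.237 to 0.119, HBEGF from -0.257 to 0.069, KRT81 from -0.014 to 0.532, MYC from -0.311 to 0.045, RPL8 from -0.434 to 0.028, TIE1 from -0.388 to 0.158, TNFAIP2 from -0.261 to 0.214, VARS from -0.229 to 0.098 and YBX1 from -0.245 to 0.029. The cause was not tested. Depth limits genes of a few reads, such as FOS and MMP3 in siI2, whose folds are poorly determined.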

Other observations

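Several metabolic lists held calls on the siI2 side, to be read beside the 1.26% of all genes called higher in siI2. In NAD metabolism, 3 of 11 measured genes (19 listed) were called higher in siI2 and none higher in siI3, with a list median of 0.04, and 2 were called without siI2 replicate 2 and siI3 replicate 3, the pair of libraries that stood apart. NNMT, which methylates nicotinamide, measured 29.4, 24.8 and 21.1 FPM in the siI2 libraries and 8.70, 3.56 and 7.44 FPM in the siI3 libraries. QPRT, the quinolinate enzyme of the de novo NAD pathway, measured 59.2, 36.4 and 42.9 FPM in the siI2 libraries and 14.6, 18.8 and 10.1 FPM in the siI3 libraries. Neither gene's groups overlapped (1.85 and 1.62 on the log2 scale, limma adjusted p = 0.000801 and 0.00201), and both kept their calls on leaving out any library. NMNAT2 differed by 0.94 (limma adjusted p = 0.0249) but lost its call without siI2 replicate 1 or 2 or siI3 replicate 1 (up to 0.135).

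In prostaglandin synthesis, 2 of 6 measured genes (14 listed) were called higher in siI2, also without that pair. Over all genes 1.26% were called higher in siI2 and 0.74% higher in siI3. PTGS1, cyclooxygenase 1, measured 9.16, 9.92 and 11.6 FPM in the siI2 libraries and 0.842, 0.762 and 0.886 FPM in the siI3 libraries (2.61, limma adjusted p = 6.26e-05). AKR1C3, an aldo-keto reductase that also forms prostaglandins, measured 24.7, 29.4 and 19.2 FPM in siI2 against 10.4, 6.61 and 7.44 FPM in siI3 (1.48, limma adjusted p = 0.00179). Both kept their calls on leaving out any library. The sterol exporter ABCA1 (3.75-fold), the aldolase ALDOC (2.62-fold) and the linker histone HIST1H1D (1.94-fold) were single calls of their lists, higher in siI2 (limma adjusted p = 0.0259, 0.0429 and 0.0461), among 19 measured ABC transporters, 27 genes of glycolysis and hypoxia and 42 histones. The histone median was -0.23, and 33 of the 42 had a negative value. Without the pair no histone was called and the other lists kept a count of 1. Each of these 3 lost its call on leaving out at least 4 of the 6 libraries in turn (up to 0.131, 0.219 and 0.25). PER2, a repressor of the circadian clock, was the only one of 15 measured clock genes called, at 6.45 ± 1.98 FPM in siI2 and 17.7 ± 2.33 FPM in siI3 (SD, n = 3; limma adjusted p = 0.011), and lost its call without siI2 replicate 1 or siI3 replicate 1 or 2 (up to 0.072).

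Ribosomal proteins of the large subunit (42 measured), aminoacyl-tRNA synthetases (20) and let-7-regulated or oncofetal genes (17) held no call. With 2% of all genes called, lists of this size without a call are near the background. The list medians were 0.16, 0.19 and 0.11, with 3 unadjusted p-values below 0.05 in each list, against 1999 of all 13782 genes. Neither edgeR nor DESeq2 called any, while the fit corrected for GC content called 1 ribosomal gene, higher in siI2. The added spike-in RNAs took 0.751% to 1.44% of reads in siI2 and 0.742% to 1.37% in siI3, ranges that overlapped, against 1.71% to 2.68% in siC.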
